A study of Homo sapiens with 31 samples.

Results

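The homeodomain interacting protein kinases HIPK1, HIPK2 and HIPK3 gave 15 of the 55371 circRNAs counted in differentiating H9 cells, and a single circle, exon 2 of HIPK3, held nearly all of their reads. Members were chosen by gene: a circRNA was taken where the transcript it is named after, or its exon ends, belonged to 1 of these 3 genes on hg19. Of the 15, 14 were assigned by transcript and 1 by its exon ends. HIPK3 gave 9 circRNAs with 6378 back-splice reads, HIPK2 gave 4 with 536 reads and HIPK1 gave 2 with 9 reads, while HIPK4, the remaining gene of the family, gave 0. A back-splice read spans a junction at which the end of an exon is joined to the start of the same or an earlier exon, and it is the mark by which a circRNA is counted.

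The data are 15 libraries of total RNA from H9, an established human ES cell line, differentiated towards retina. Undifferentiated cells were harvested at day 0, and further cultures at day 45 and day 90, in 3 replicates each. Parallel cultures received IGF-1, a growth factor, at 5 ng/ml to day 37 and 10 ng/ml after it, and were harvested at day 45 and day 90, again in 3 replicates each. All groups derive from this 1 line, and whole cultures were taken without picking out retinal structures, so each library is a mixture of cells. Libraries held 14992 to 17929 back-splice reads at day 0 and 42858 to 108946 later, from 105685200 to 155002132 sequenced reads. Levels are given as RPM, back-splice reads scaled to 1000000 sequenced reads, since sequenced reads measure the depth of a library independently of its circRNAs.

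HIPKs are nuclear serine/threonine kinases of the CMGC group, to which the CDKs, MAP kinases, DYRKs and CLKs also belong. They bind homeodomain transcription factors, co-repressors and regulators such as p53 and its partners, and they take part in Wnt signalling, apoptosis and eye and neural development. The circular RNA of HIPK3 exon 2, known as circHIPK3, is a widely studied circRNA of human cells and has been described as a binding partner of several microRNAs.

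The junctions of the 3 exon 2 circles are shown because they are the molecules that were counted, and because they show how alike the paralogues are where exon 2 closes on itself. In each, the last 30 bases of exon 2 are in lower case and the first 30 bases of the same exon, joined to them by back-splicing, are in capitals, 5′ to 3′ on the gene's strand (hg19).
HIPK3 exon 2, plus strand, chr11:33307959-33309057: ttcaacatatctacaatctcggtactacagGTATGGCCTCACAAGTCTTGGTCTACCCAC
HIPK2 exon 2, minus strand, chr7:139415731-139416814: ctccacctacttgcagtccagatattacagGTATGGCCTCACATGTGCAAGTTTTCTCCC
HIPK1 exon 2, plus strand, chr1:114483004-114484081: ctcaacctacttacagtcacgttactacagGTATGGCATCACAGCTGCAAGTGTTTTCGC
Of these 60 bases, HIPK3 shared 40 with HIPK2 and 41 with HIPK1, and HIPK2 shared 48 with HIPK1. The capitals open in each with 2 bases and then ATG, which is the annotated start codon of a transcript of each gene, so the 3 circles carry a start codon at base 3.

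The circles were of nearly 1 size, 1099 bases for HIPK3, 1084 for HIPK2 and 1078 for HIPK1. Over the whole exon, a global alignment gave 64.5% identity between HIPK3 and HIPK2, 64.7% between HIPK3 and HIPK1, and 70.8% between HIPK2 and HIPK1. Their G and C content differed, at 42.0%, 53.6% and 48.5% in the same order. Exon 3 measured 124 bases in all 3 genes. Each exon 2 was long for a circle of a single exon, with about 90% of the 2511 single-exon circRNAs shorter and a median of 250 bases among them. None of the 3 lengths was a multiple of 3, so the reading frame moves by 1 base at each turn. Read from the start codon around the circle, the first stop in frame came after 387 codons in HIPK3, 380 in HIPK2 and 396 in HIPK1, in each on the second turn. These are properties of the sequence only, and back-splice counts do not measure translation.

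Exon 2 is flanked by long introns in HIPK3 and HIPK2. The intron before HIPK3 exon 2 spanned at least 27722 bases and the one after it 40998, against 60589 and 99259 in HIPK2 and at least 10442 and 11306 in HIPK1. Among 2191 single-exon circRNAs with both introns annotated, 79.5% had a shorter upstream and 87.9% a shorter downstream intron than HIPK3, while for HIPK1 these shares were 58.8% and 64.6%. HIPK2 had the longest introns and HIPK3 the most reads, while HIPK1 had the shortest introns and the fewest reads. A link of intron length to read counts was not tested. Within 3000 bases on either side, the longest exact inverted match between the introns was 23 bases in HIPK3 and 26 in HIPK1, and HIPK2 had none of 12 bases or more. The median over 560 single-exon circRNAs with at least 10 reads was 22 bases.

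The splice sites differed at the end of exon 2. They are shown because the donor of HIPK1 departs from the usual GT, with the last 10 exon bases in capitals and the first 20 intron bases in lower case.
HIPK3 exon 2 donor: GGTACTACAGgtaggtaacaactccatact
HIPK2 exon 2 donor: GATATTACAGgtaagaccgtccacaaggag
HIPK1 exon 2 donor: GTTACTACAGgcaagtggcaaatgctgaaa
The intron after HIPK1 exon 2 begins with GC, as it did in 16 of the 2510 single-exon circRNAs (0.637%) and 404 of 55354 circRNAs of any kind (0.730%) whose sites could be read. These 16 held 67 reads in all, 7 of them from HIPK1. The same donor serves linear splicing of exon 2 to exon 3, which was not measured here. HIPK3 had the longest run of T before exon 2, in the acceptor window ttttttttttttttttgcagGTATGGCCTC, where the first 10 exon bases are in capitals.

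HIPK3, whose kinase binds the death-domain adaptor FADD, led all other HIPK circRNAs through its exon 2. This circle was the fifth most abundant of all circRNAs and the most abundant of the single-exon ones, with 6298 reads over the 15 libraries. Its counts at day 0 were 128, 92 and 81 for replicates 1 to 3, or 1.03, 0.647 and 0.578 RPM. At day 45 they were 554, 462 and 609, or 5.00, 3.34 and 4.16 RPM. At day 90 they were 236, 556 and 523, or 1.70, 4.01 and 3.41 RPM. Every later library lay above every day 0 library, and day 90 replicate 1 was the lowest of the later ones, with 42858 back-splice reads in all. With IGF-1, the counts were 256, 584 and 501 at day 45 (2.42, 4.37 and 3.57 RPM) and 535, 566 and 615 at day 90 (4.04, 3.65 and 4.21 RPM). The IGF-1 libraries overlapped the untreated ones of the same day at both times.

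**Figure D1:**
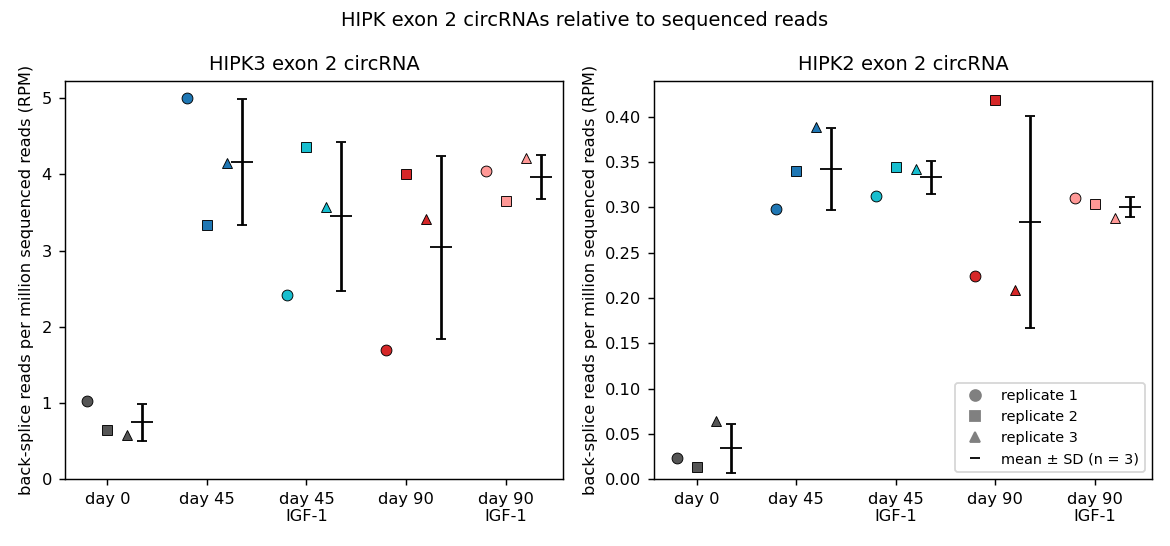
Level of the exon 2 circRNAs of HIPK3 (left) and HIPK2 (right) in each library, in RPM (back-splice reads scaled to 1000000 sequenced reads), with replicates 1 to 3 as points and the mean ± SD (n = 3) beside them. In both panels the 3 day 0 libraries sit below all 12 later ones, and the later groups overlap.

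HIPK3 exon 2 rose 5.55-fold between day 0 and day 45, from 0.750 ± 0.241 RPM to 4.17 ± 0.831 (SD, n = 3 each). The log2 change was 2.47 (SE 0.41, adjusted p = 4.54e-08 by edgeR's quasi-likelihood test over 12498 circRNAs). At day 90 it stood at 3.04 ± 1.20 RPM, 4.06-fold above day 0 with a log2 change of 2.02 (SE 0.40, edgeR adjusted p = 1.43e-05). Over all 12 later libraries the mean was 3.66 ± 0.887 RPM, 4.88 times that of day 0, with p = 0.0022 in a two-sided exact permutation test, the smallest that 3 libraries against 12 can give. These 12 pool 2 days and both treatments. Against the 6 untreated later libraries alone the ratio was 4.81 (p = 0.0119, exact permutation test). Within each replicate number, the ratio of day 45 to day 0 was 4.88, 5.16 and 7.19. At these days, libraries that share a replicate number also fell in the same broad class of sequencing quality (Q30), which does not make their quality equal. RNA integrity numbers, per the study's methods, were 9.8 to 10 at day 0, 7.6 to 9.1 at day 45 and 7.1 to 8.9 at day 90. Their part in the rise was not tested. In bulk RNA, more cells that carry a circRNA and more of it per cell cannot be told apart.

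All back-splice reads rose together with it. They went from 118 ± 11 RPM at day 0 to 747 ± 206 at day 45 and 485 ± 156 at day 90, and the median log2 change over the 12498 circRNAs was 2.87 at day 45 and 2.33 at day 90. The change of HIPK3 exon 2 therefore lay below the median, with a difference of -0.40 at day 45 and -0.31 at day 90 (log2). Of all circRNAs tested, 40.1% had a smaller change than HIPK3 exon 2 at day 45. Among the 203 circRNAs that already had at least 30 reads at day 0, whose median log2 change was 1.84, the share with a smaller change was 68.0%.

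As a share of all back-splice reads, HIPK3 exon 2 did not pass the test between day 0 and the later libraries. Its share was 0.854%, 0.609% and 0.452% at day 0, with 95% Wilson intervals of 0.719% to 1.01%, 0.497% to 0.746% and 0.364% to 0.561%, which cover counting error only. The 12 later libraries ran from 0.423% to 0.770%, with a median of 0.606%. Day 0 spans almost this whole range, with its lowest library near the bottom and its highest above every later library. On average it took 0.638% ± 0.203 at day 0 (SD, n = 3) and 0.610% ± 0.106 later (SD, n = 12), a ratio of 0.957 with p = 0.732 (exact permutation test). Leaving out day 0 replicate 1, the highest, turned the ratio to 1.15 (p = 0.363, exact permutation test), and leaving out replicate 3 gave 0.835 (p = 0.187, exact permutation test). Its rank was steady, between 3 and 7 among all circRNAs of a library at day 0 and between 4 and 7 in the later ones.

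**Figure D2:**
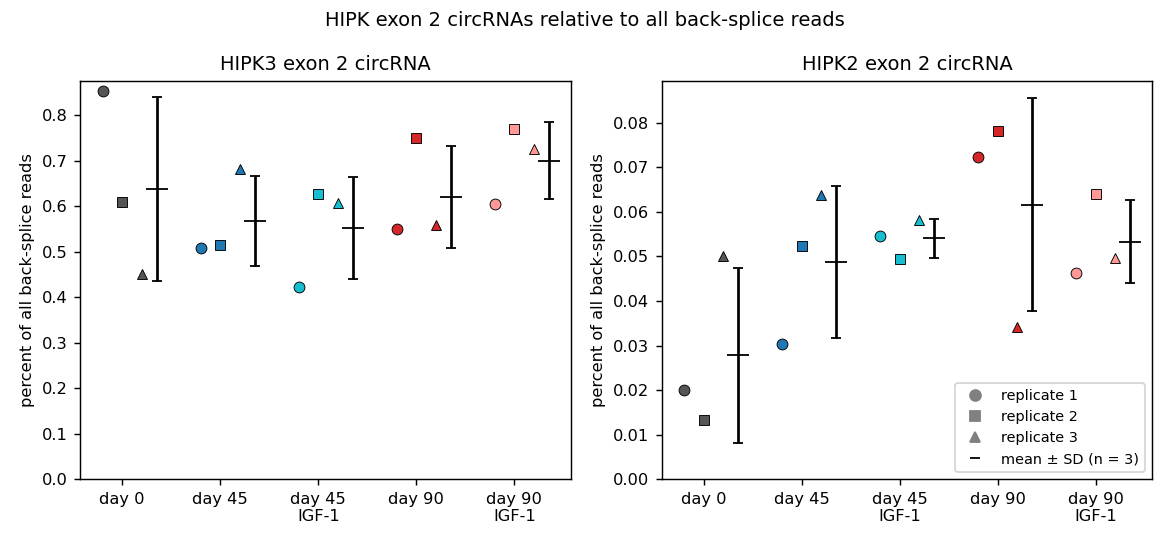
Share of all back-splice reads of a library, in percent, taken by the exon 2 circRNAs of HIPK3 (left) and HIPK2 (right), with replicates as points and the mean ± SD (n = 3) beside them. HIPK3 at day 0 spans 0.452% to 0.854% and overlaps every later group, while 2 of the 3 day 0 libraries lie below all later ones for HIPK2.

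HIPK2 exon 2 was far less abundant, with 529 reads and, over the summed libraries, rank 227 of all circRNAs and 21 among the single-exon ones. Within single libraries its rank lay between 258 and 1224 at day 0 and between 124 and 439 later. HIPK2 phosphorylates p53 after DNA damage and works with co-repressors in developing neurons. Its counts were 3, 2 and 9 at day 0, 33, 47 and 57 at day 45, and 31, 58 and 32 at day 90. In RPM these were 0.0240, 0.0141 and 0.0642 at day 0, 0.298, 0.340 and 0.389 at day 45, and 0.224, 0.419 and 0.209 at day 90. No later library overlapped day 0, whose replicate 3 stood well above its other two. With IGF-1 the counts were 33, 46 and 48 at day 45 and 41, 47 and 42 at day 90.

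HIPK2 exon 2 rose from 0.0341 ± 0.0265 RPM at day 0 to 0.342 ± 0.0456 at day 45 and 0.284 ± 0.117 at day 90 (SD, n = 3 each). The log2 change was 3.29 (SE 0.53, edgeR adjusted p = 2.57e-08) at day 45 and 3.01 (SE 0.53, edgeR adjusted p = 8.14e-07) at day 90, 0.41 and 0.68 above the medians of all circRNAs. The position at day 45 did not hold on other scales, at -0.0025 from the median with TMM factors and -0.23 with DESeq2 size factors, while at day 90 it lay above the median by 0.28 and 0.27. Without day 0 replicate 3, which holds 9 of the 14 day 0 reads, the log2 changes with sequenced reads became 4.12 at day 45 and 3.85 at day 90. The ratio of day 45 to day 0 within replicate numbers was 12.4, 24.2 and 6.06.

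The share of HIPK2 among all back-splice reads, summed over its circRNAs, was 0.0278% ± 0.0197 at day 0 (SD, n = 3) and 0.0551% ± 0.0140 later (SD, n = 12), a ratio of 1.98. Its raw p was 0.0198 by an exact permutation test, and 0.0429 after adjustment over the 3 genes compared. The call was lost without day 0 replicate 1 (ratio 1.74, exact permutation p = 0.0879), without day 0 replicate 2 (1.57, p = 0.110) and against the 6 untreated later libraries alone (2.01, p = 0.0952), while without day 0 replicate 3 the ratio was 3.32 (p = 0.0110). For HIPK3 summed over its circRNAs the ratio was 0.956 with a raw and adjusted p of 0.732 (exact permutation test). For HIPK1 the ratio was 0.157 with a raw p of 0.0286 and an adjusted p of 0.0429 (exact permutation test), but this rests on 1 read in each of 2 day 0 libraries, and the call was lost without either of them (exact permutation p = 0.143 for each). In RPM, HIPK1 had 0.00501 ± 0.00437 at day 0 (SD, n = 3) and 0.00431 ± 0.00848 later (SD, n = 12), a ratio of 0.860 with overlapping libraries, while the total of back-splice reads was larger in every later library.

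HIPK3 exon 2 exceeded HIPK2 exon 2 in every library. The ratio of their counts was 42.7, 46 and 9 at day 0 and between 7.61 and 16.8 in the 12 later libraries, with a median of 11.4. Day 0 replicate 3 fell within the later range and the other two day 0 libraries stood above it. The mean log2 ratio was 4.70 ± 1.33 (SD, n = 3) at day 0 and 3.51 ± 0.38 (SD, n = 12) later, a difference of -1.19 with p = 0.0242 (exact permutation test, chosen after seeing the data). It did not pass without day 0 replicate 1 (p = 0.121, exact permutation test) or without replicate 2 (p = 0.132, exact permutation test), and without replicate 3 the difference was -1.95 (p = 0.0110, exact permutation test). The difference thus depends on which day 0 libraries are used, where HIPK2 exon 2 had 14 reads in all.

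How far the rises go depends on the scale, and both exon 2 circRNAs fell short of the threshold on the scale furthest from sequenced reads. With TMM factors on back-splice totals, the log2 change of HIPK3 exon 2 from day 0 was 0.71 at day 45 (SE 0.26, edgeR adjusted p = 0.0663) and 0.76 at day 90 (SE 0.26, edgeR adjusted p = 0.0441), and that of HIPK2 exon 2 was 1.60 (edgeR adjusted p = 0.00936) and 1.83 (edgeR adjusted p = 0.00182). With DESeq2 size factors in the edgeR fit, HIPK3 exon 2 changed by 0.12 (SE 0.25) and 0.25 (SE 0.25) and HIPK2 exon 2 by 1.01 (SE 0.46) and 1.34 (SE 0.45), none past the threshold. These scales also moved the median of all circRNAs at day 45, to 1.60 and 1.24. On all 3 scales HIPK3 exon 2 lay below the median of all circRNAs, with differences between -1.12 and -0.31. The 3 scales use the same counts, so they are not separate support for this position. The position also depends on the set compared. Among the 203 circRNAs with at least 30 reads at day 0, HIPK3 exon 2 lay above the median with sequenced reads. Its changes of 2.47 at day 45 and 2.02 at day 90 stood beside medians of 1.84 and 1.23. That set was not compared on the other scales. Among all circRNAs called at day 45, 5114 of 5146 were higher with sequenced reads, 783 of 897 with TMM factors and 321 of 510 with DESeq2 size factors.

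**Figure D3:**
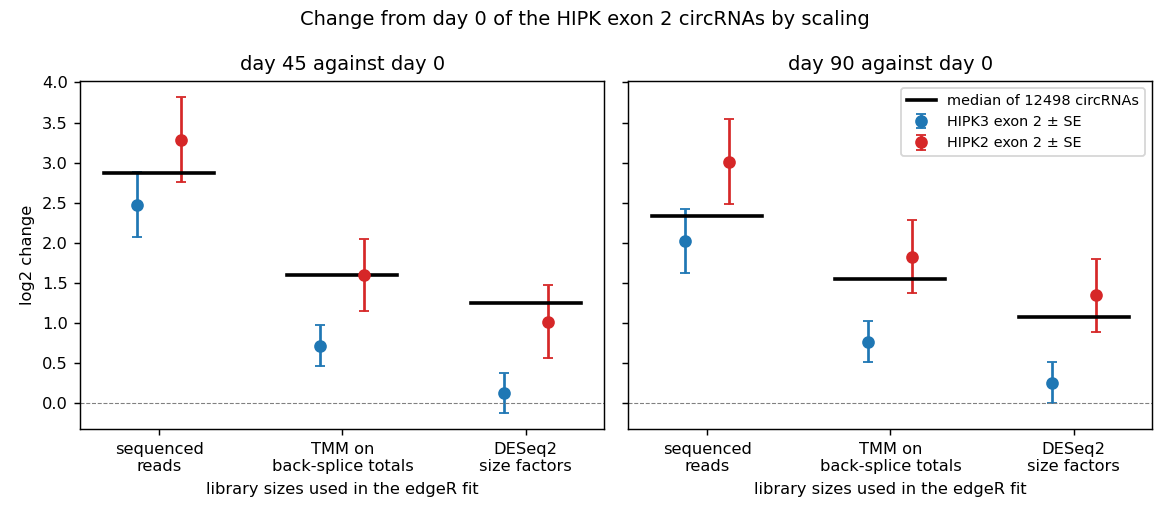
Log2 change from day 0 of the exon 2 circRNAs of HIPK3 (blue) and HIPK2 (red), ± SE, at day 45 (left) and day 90 (right) with 3 kinds of library size in the same edgeR fit, and the median of 12498 circRNAs as a black bar. HIPK3 lies below the bar in all 6 positions, from 2.47 against 2.87 at day 45 with sequenced reads to 0.25 against 1.07 at day 90 with DESeq2 size factors. These positions rest on the same counts and are not separate support. Not drawn is the median of the 203 circRNAs with at least 30 reads at day 0, which HIPK3 exceeded with sequenced reads.

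Of the 15 HIPK circRNAs, 5 had the 10 summed reads needed for the test: HIPK3 exon 2, HIPK2 exon 2, and HIPK3 exons 5 to 8, 2 to 3 and 3 to 8. Between day 0 and day 45, 2 of the 5 were called, both higher, beside 40.9% of all circRNAs tested. Between day 0 and day 90, 3 were called, all higher, beside 21.7% of all. Beside the 2 leading circles, the call at day 90 was HIPK3 exons 2 to 3. It had 0 reads at day 0, so it could only come out higher, and 7 of its 9 day 90 reads came from 1 library. Both leading circles thus belong to a class of change shared by a large part of the circRNAs tested. By summed counts per gene, HIPK2 and HIPK3 were both called higher at day 45 (63.4% of 4933 genes were) and at day 90 (45.3% were), and HIPK1 with 9 reads was not tested.

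Between day 45 and day 90, 0 of the 5 HIPK circRNAs passed edgeR's test, beside 0.08% of all circRNAs, and 0 had an unadjusted p under 0.05. DESeq2's test also called 0, and Fisher's exact test on summed counts, which ignores the spread between replicates, called 1, HIPK3 exon 2. The log2 change of HIPK3 exon 2 was -0.45, with a 95% interval of -1.20 to 0.30, and that of HIPK2 exon 2 was -0.27, with an interval of -1.12 to 0.57. In the IGF-1 cultures, the changes from day 45 to day 90 were 0.20 (-0.55 to 0.95) and -0.15 (-0.99 to 0.69), with 0 of 5 called by edgeR (0 at an unadjusted p under 0.05, and 0 by DESeq2 and Fisher's exact test) beside 0.016% of all. By summed counts per gene, 0 of the 2 HIPK genes passed in either comparison (0 at an unadjusted p under 0.05, 0 by DESeq2 and 1 by Fisher's exact test in each), beside 0.385% of all genes without IGF-1 and 0.0811% with it.

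IGF-1 is used in retinal differentiation to promote eye structures, and these comparisons ask whether it moved HIPK circRNAs. At day 45, HIPK3 exon 2 had a mean of 3.45 ± 0.977 RPM with IGF-1 and 4.17 ± 0.831 without it (SD, n = 3 each), a log2 change of -0.27 with an interval of -1.02 to 0.48. HIPK2 exon 2 had 0.333 ± 0.0178 RPM and 0.342 ± 0.0456, a log2 change of -0.04 with an interval of -0.88 to 0.80. At day 90, HIPK3 exon 2 had 3.97 ± 0.288 RPM with IGF-1 and 3.04 ± 1.20 without it, a log2 change of 0.38 with an interval of -0.37 to 1.13. HIPK2 exon 2 had 0.300 ± 0.0113 and 0.284 ± 0.117, a log2 change of 0.08 with an interval of -0.76 to 0.93. None of the 5 HIPK circRNAs passed edgeR's test at day 45 (0.016% of all circRNAs did) or day 90 (0.008% did), and 0 had an unadjusted p under 0.05 at either day. DESeq2 also called 0, while Fisher's exact test called HIPK3 exon 2 at both days, in opposite directions. Per gene, 0 of 2 passed edgeR's test at each day (0 at an unadjusted p under 0.05, 0 by DESeq2 and 1 by Fisher's exact test), beside 0.0203% of all genes at day 45 and 0.0203% at day 90. The difference between the IGF-1 effects at the 2 days was 0.65 (-0.41 to 1.71) for HIPK3 exon 2 and 0.12 (-1.06 to 1.31) for HIPK2 exon 2, with 0 of 5 called by edgeR, 0 at an unadjusted p under 0.05 and 0 by DESeq2, beside 0% of all circRNAs (603 of 12498 at an unadjusted p under 0.05).

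The remaining 8 HIPK3 circRNAs held 80 reads in all, and exon 2 accounted for 98.7% of the reads of the gene. Its share was 98.9% ± 1.15 at day 0 (SD, n = 3) and 98.7% ± 0.744 later (SD, n = 12), a difference of -0.208 percentage points with p = 0.725 (exact permutation test). In single libraries it ran from 97.1% to 100%. For HIPK2, exon 2 held 98.7% of 536 reads, and all other HIPK2 circRNAs were seen only at day 90, with or without IGF-1, in 7 reads.

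**Figure D4:**
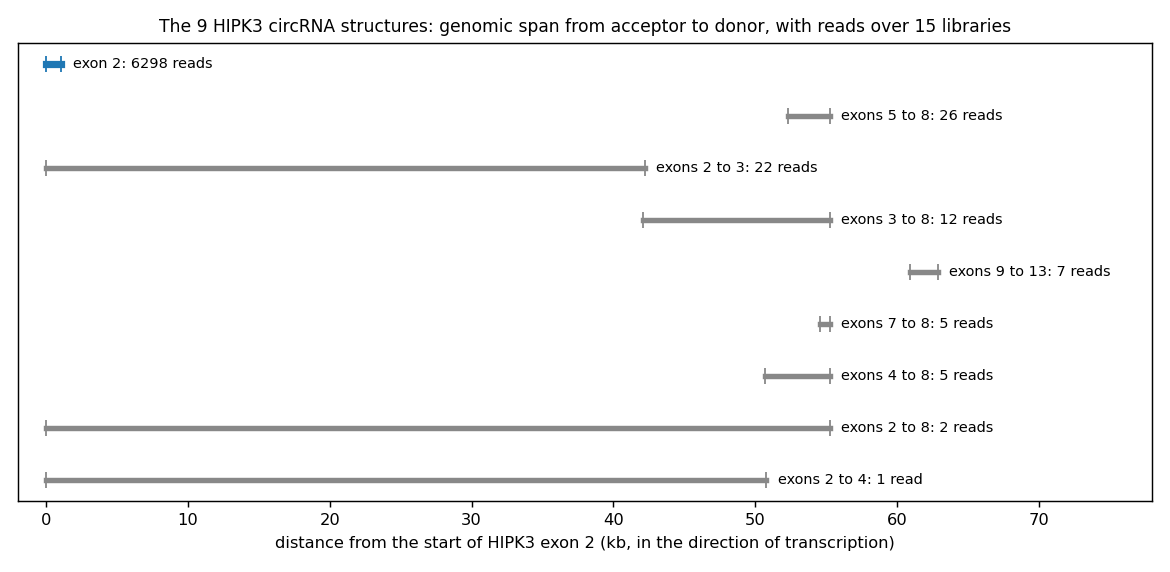
Genomic span of the 9 HIPK3 circRNAs from acceptor to donor, in kb from the start of exon 2, with the reads of each over the 15 libraries. Exon 2 alone (blue) holds 6298 reads, and 5 of the other 8 circRNAs end at the donor of exon 8.

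Beside exon 2, HIPK3 circles ended most often at exon 8. Its donor was joined to the acceptors of exons 2, 3, 4, 5 and 7 in 5 circRNAs with 50 reads together. The most frequent was exons 5 to 8 (chr11:33360303-33363232), with 26 reads in 12 libraries. It had 3 reads at day 0, 6 at day 45, 3 at day 45 with IGF-1 and 7 at day 90 with or without IGF-1, and was not called at day 45 (log2 change 0.96, SE 1.21) or day 90 (1.03, SE 1.19). Exons 3 to 8 had 12 reads, 0 of them at day 0, and exons 9 to 13 had 7. Exons 4 to 8 and 7 to 8 had 5 each, exons 2 to 8 had 2, and exons 2 to 4 had 1. The junction of exons 5 to 8 is shown because it is the leading circle that leaves exon 2 out, with the end of exon 8 in lower case and the start of exon 5 in capitals.
HIPK3 exons 5 to 8: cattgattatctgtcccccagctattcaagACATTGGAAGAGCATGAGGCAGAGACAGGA

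The acceptor of HIPK3 exon 2 was also joined to the donor of exon 3 (chr11:33307959-33350179), a circle that holds exon 2 and the next exon. It had 22 reads, 0 in each day 0 library. The counts were 0, 2 and 0 at day 45, 1, 1 and 7 at day 90, 1, 5 and 1 at day 45 with IGF-1, and 1, 2 and 1 at day 90 with IGF-1. Day 90 replicate 3 alone held 7 of the 9 reads of its group. Against day 0, where 0 reads allow up to 3 over the group, the day 90 level was at least 2.84-fold higher. This bound rests on that library, since without it 2 reads remain at day 90, fewer than the 3 that 0 allows, and no fold can be given. The call at day 90 (edgeR adjusted p = 0.0388) was lost without day 90 replicate 3 (edgeR adjusted p = 0.257). It was also lost without any 1 of the day 0 libraries (edgeR adjusted p = 0.101 to 0.115), and with TMM factors or DESeq2 size factors. The corresponding HIPK1 circle of exons 2 and 3 had 2 reads, both from day 45 replicate 2, and none was counted for HIPK2.

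Most HIPK reads used the acceptor of exon 2, nearly all of them through the single-exon circles. The exon 2 acceptor was used by 7 of the 15 HIPK circRNAs and 99.1% of HIPK reads, beside 21.6% of all circRNAs and 36.9% of all back-splice reads. Of the 6861 HIPK reads at this acceptor, 6834 came from the 3 circles of exon 2 alone. The 99.1% therefore says little about the other HIPK circRNAs. Single-exon circles were 3 of the 15 and held 98.7% of HIPK reads, beside 4.53% of all circRNAs and 7.28% of all reads. HIPK3 exon 2 alone made up 6298 of the 74884 reads of single-exon circRNAs in the series.

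HIPK1 phosphorylates DAXX, a regulator of apoptosis and transcription, and its circles were near the limit of detection. HIPK1 exon 2 had 7 reads in 6 libraries, 2 at day 0, 2 at day 45, and 1 in each of the other 3 groups. A count of 0 in a library allows up to 0.0194 to 0.0284 RPM, so levels of HIPK1 cannot be compared between groups at this depth. HIPK circRNAs seen at all numbered 5 at day 0, 10 at day 45 and 7 at day 45 with IGF-1. Of all circRNAs, 12431, 31360 and 27931 were seen in these groups. At day 90, 11 HIPK circRNAs were seen with or without IGF-1, beside 26439 of all without it and 28343 with it.

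MicroRNA seed matches in the circles were searched for microRNAs named with circHIPK3 or other circRNAs. The mature sequences (RefSeq, GRCh38) are shown because their seeds, bases 2 to 8 in capitals, set the letters searched for.
hsa-miR-558: uGAGCUGCuguaccaaaau
hsa-miR-30a-3p: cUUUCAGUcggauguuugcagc
hsa-miR-7-5p: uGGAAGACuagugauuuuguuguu
The complement of the miR-558 seed, GCAGCTC, occurred once in the HIPK3 circle, at base 288 (caaaggtcataGCAGCTCaggcacagcaag), and not in HIPK2 or HIPK1. That of miR-30a-3p, ACTGAAA, occurred 2 times in HIPK3, first at base 750 (caaggctcagtACTGAAAatgctgatgaat), and 1 time each in HIPK2 and HIPK1, both at base 71. That of miR-7-5p, GTCTTCC, occurred only in HIPK2 among the 3, at base 234. Only the strand of the circle was searched, the junction included, and the 3 motifs do not overlap. Among 54 single-exon circRNAs within 10% of the length of HIPK3 exon 2, 16.7% held GCAGCTC, 13% ACTGAAA and 11.1% GTCTTCC. A match is a description of letters, and binding was not measured. hsa-miR-124-3p was not searched for here.

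The kinases most related to HIPKs gave few circRNAs apart from CLK1 and DYRK1A. Of 11 CMGC relatives (HIPK4 and the DYRK, CLK and PRPF4B kinases), 7 had back-splice reads and 5 could be tested. By summed counts, 3 were called higher and 0 lower at day 45, with a median log2 change of 2.43 beside 2.81 over all 4933 genes. At day 90, 2 were called higher and 0 lower, with a median of 1.53 beside 2.14. The 3 and 2 of 5 stand beside 63.4% and 45.3% of all genes called higher at these days. CLK1, which phosphorylates SR splicing factors, rose from 5 reads at day 0 to 97 at day 45 (log2 change 4.25, SE 0.63, edgeR adjusted p = 1.93e-10). DYRK1A, a kinase of brain development, rose from 18 to 93 reads (2.43, SE 0.52, edgeR adjusted p = 1.23e-05). CLK2 had 5 and 7 reads and was not called (0.45, SE 1.24). At day 90 the log2 changes of CLK2 and CLK4 were negative, at -3.84 and -1.87, and neither was called (edgeR adjusted p = 0.0693 and 0.402). Besides CLK1 and DYRK1A, the call at day 45 was PRPF4B (edgeR adjusted p = 0.0384). It had 0 reads at day 0, so it could only come out higher. The whole list held 738 reads, beside 6378 for HIPK3.

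Of 31 genes for partners and substrates of HIPKs, 16 had back-splice reads and 10 could be tested. At day 45, 8 rose and 0 fell, with a median log2 change of 2.79 beside 2.81 over all genes, and at day 90 7 rose and 0 fell, with 2.06 beside 2.14. Of all genes, 63.4% and 45.3% were called higher at these days. RANBP9, a scaffold protein that binds HIPK2, rose from 33 to 223 reads at day 45 (2.84, SE 0.45, edgeR adjusted p = 2.73e-09). EP300, an acetyltransferase co-activator, rose from 24 to 211 (3.21, SE 0.47, edgeR adjusted p = 1.72e-10). CREBBP, its paralogue, rose from 24 to 133 (2.50, SE 0.48, edgeR adjusted p = 1.33e-06). The 10 tested genes ranged from 0.76 for CTBP2, a co-repressor that was not called, to 5.35 for MAP3K7, a kinase of TGF-beta and Wnt signalling with 0 reads at day 0, whose fitted value depends on the prior count.

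Among 24 genes known for abundant circRNAs, 23 were found by name in the annotation, 19 had reads and all 19 could be tested. At day 45 and at day 90, 17 rose and 1, FIRRE, fell, with medians of 3.03 and 2.42 beside 2.81 and 2.14 over all genes, of which 63.4% and 45.3% were called higher. RMST, a long non-coding RNA of neurogenesis, held 23005 reads and rose by 5.78 (SE 0.43, edgeR adjusted p = 6.03e-37) at day 45. MAN1A2, a mannosidase of the Golgi, held 21416 and rose by 4.03 (SE 0.39, edgeR adjusted p = 2.92e-22). SMARCA5, a chromatin remodelling ATPase, held 14844 and rose by 2.80 (SE 0.37, edgeR adjusted p = 1.21e-12).

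**Figure D5:**
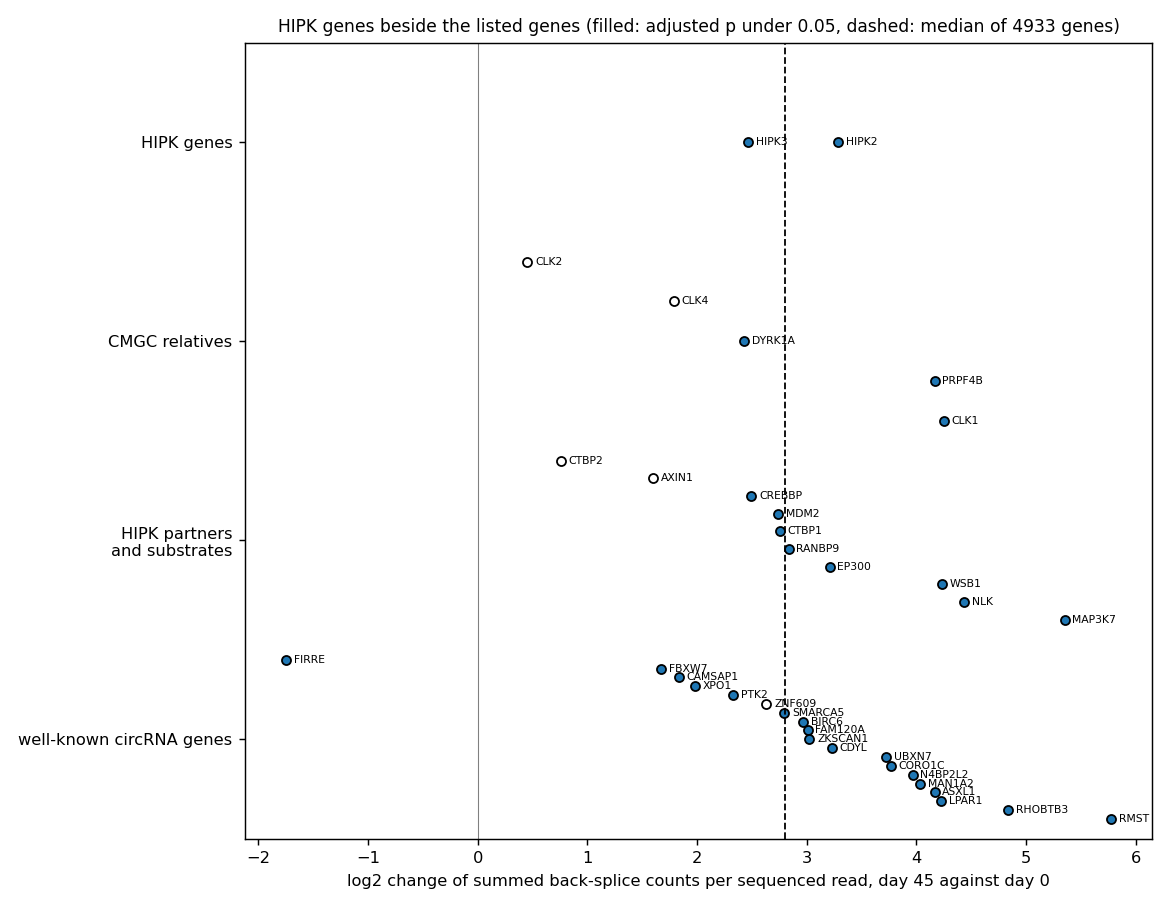
Log2 change of summed back-splice counts per sequenced read at day 45 against day 0 for the 2 tested HIPK genes and for the tested genes of 3 lists, filled where the edgeR adjusted p was under 0.05, with the median of 4933 genes (2.81) as a dashed line. HIPK3 lies left of the line at 2.47 and HIPK2 right of it at 3.29, both within the range of the other lists.

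The genes whose summed back-splice levels were most like those of HIPK3 over the 15 libraries were RPS6KA5, BRWD1, WDR7, DMXL2 and ROCK1, with Pearson's r of log2 RPM between 0.975 and 0.979. The median r over 1104 genes was 0.885, and HIPK2 stood at 0.884. On the log2 share of back-splice reads, where the median r was -0.00445, the nearest were MLH3 (0.802), MED13 (0.728), DYNC2I1 (0.692), ATP13A3 (0.661) and TET1 (0.649), and HIPK2 stood at -0.0758. Points within these correlations share their library and depth, and they are given as a description.

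Marker genes gave hardly any circRNAs, so back-splice reads do not check the cell types of the cultures. Of 8 pluripotency markers 3 had reads, 4 in all, 3 of them at day 0. Of 10 markers of neural retina and eye field 2 had reads, 5 in all. Of 4 of pigment epithelium 2 had reads, 26 in all, and of 4 of mesoderm and fibroblasts 2 had reads, 3 in all. None of the reads of the last 3 lists came from day 0, and POU5F1, NANOG, PAX6 and CRX were at 0. Their part in the rise of HIPK circRNAs was not tested.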

How the data were processed

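Total RNA of H9 cells was depleted of ribosomal RNA and sequenced as paired reads. The authors screened each library with PTESFinder v.1 against GENCODE v19 transcripts on hg19 and deposited raw counts of back-splice reads per circRNA and library, without normalisation or pooling. Canonical junctions and amplicon libraries were not used here. Sequenced reads per library were taken from the study's supplement, which lists day 90 replicate 1 on 2 lines and replicate 2 on none, so both were given the mean, 138564639 reads. All library names matched a sample, and library counts added up to the deposited sums.

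Genes were assigned with GENCODE 44 on GRCh37, and sequences were read from that genome with pysam 0.24.0 and aligned with Biopython 1.88. circRNAs, and counts summed per gene, with at least 10 reads were tested with the quasi-likelihood functions glmQLFit and glmQLFTest of edgeR 4.0.16 in R 4.3.3. The 15 libraries entered a single model, 1 coefficient for each group, scaled by sequenced reads. Benjamini-Hochberg adjustment ran over all features tested, with a threshold of 0.05. The SE of a log2 change was its size divided by the square root of edgeR's F statistic. It is therefore approximate, and can be unreliable where the change is small. The 95% intervals of log2 changes are 1.96 of these SE on either side. Alternatives were TMM factors, DESeq2 1.42.0 size factors and Wald test, Fisher's exact test, other filters, a replicate block, a term for sequencing quality (Q30), both assignments of the day 90 reads, and each library left out. MicroRNA sequences came from RefSeq (GRCh38). Counting intervals cover counting error only. Single values were compared by two-sided exact permutation tests computed in Python with numpy 2.4.6. The Wilson intervals and the adjustment over the HIPK genes were made with scipy 1.17.1. Both tests were also tried on simulated data, for edgeR with the common dispersion of the real fit for every circRNA. The test of the log2 ratio of HIPK3 to HIPK2 was added after the data were seen.

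The members and lists were chosen with earlier results of these data known. Every member was to be described, those with at least 10 reads singly, with the 3 genes of each list with the highest counts and the 5 genes most like HIPK3 (at least 150 reads). Labels describe triplicate platings, so p-values measure the spread between these cultures of 1 line. Replicate numbers were not treated as pairs, as no 2 groups had all correlations of same-numbered deviations over 0.1. Between day 45 with and without IGF-1 these correlations were 0.101, 0.062 and 0.026. Low correlations do not show that samples are unpaired, so the replicate block was fitted as an alternative. The most alike pair of libraries had equal counts for 9.45% of circRNAs, so none was a duplicate.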

Additional observations from a re-analysis of the deposited data

How the results depend on the processing

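Scaling had the largest effect on the calls. Of the HIPK circRNAs called against day 0 (2 at day 45, 3 at day 90), TMM factors on back-splice totals left 1 at day 45 and 2 at day 90. DESeq2 size factors left 0 at both days, and DESeq2's Wald test called 2 at each day. Of the 2 HIPK genes called at each day, TMM left 0 at day 45 and 1 at day 90, and DESeq2 size factors left 0 at both, with the log2 change of HIPK3 per gene turning to -0.045 at day 45. Fisher's exact test called 1 circRNA, HIPK3 exon 2, between day 90 and day 45 and in both IGF-1 comparisons, and 1 gene, HIPK3, in these and between the IGF-1 groups of both days. It treats reads as independent and cannot give the difference of IGF-1 effects.

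Against the 6 untreated later libraries alone, the gene shares had ratios of 0.208 for HIPK1 (exact permutation p = 0.0833) and 2.01 for HIPK2 (p = 0.0952), no longer past the threshold. Leaving out 1 library gave ratios of 0.0801 to 0.211 for HIPK1, 1.57 to 3.32 for HIPK2 and 0.831 to 1.16 for HIPK3. For HIPK3 exon 2 it gave 4.38 to 5.97 in RPM, 0.835 to 1.15 as a share of all back-splice reads and 0.992 to 1.00 as a share of HIPK3 reads. The HIPK circRNAs called at day 90 ranged from 2 to 3, and 2 were called at day 45 whichever library was left out. With the replicate block, 2 circRNAs were called at day 45 and 2 at day 90, where HIPK3 exons 2 to 3 was lost (edgeR adjusted p = 0.0539), and the ratio of HIPK3 exon 2 RPM kept p = 0.008 (exact permutation within replicate numbers). The block changed no other call. The cause of these differences was not tested. Depth limits HIPK1 and all circles other than the exon 2 circles of HIPK3 and HIPK2.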
